A study of Mus musculus with 32 samples.

Results

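The genes described here are 10 markers of the integrated stress response and the unfolded protein response, taken by name from the 54446 genes counted in each of 32 liver tumour libraries: Atf4, Atf3, Ddit3, Trib3, Chac1, Asns, Sesn2, Hspa5, Xbp1 and Hsp90b1. All 10 had enough counts to be tested in each cohort. The tumours came from a mouse liver cancer line, BNL-MEA, implanted in the livers of immunocompetent Balb/c mice, so they stand for 1 line and held host liver and immune cells as well as cancer cells. Every mouse carried such a tumour, the vehicle mice included, and the labels give neither age nor a genetic alteration of the hosts. The 3 experiments are called cohorts. The dose cohort (batch p112) held 4 vehicle libraries, 3 from mice on regorafenib 5 mg/kg/day, called the low dose here, and 3 on regorafenib 20 mg/kg/day, called the high dose. Regorafenib is an oral inhibitor of VEGF receptors and other kinases. The DC-101 cohort (batch p103) compared vehicle (n = 4) with low dose regorafenib (n = 3) and with DC-101 (n = 3), an antibody to mouse VEGFR2 injected at 800 µg on days 1, 3 and 5. The anti-PD1 cohort (batch p101) compared vehicle with low dose regorafenib, with an antibody to the T cell checkpoint receptor PD1, and with regorafenib plus anti-PD1 (n = 3 each). The combination used regorafenib 5 mg/kg/day. A figure legend of the study describes the libraries of the anti-PD1 cohort as separate tumours, while for the other cohorts the labels give replicate numbers alone, so there the spread between libraries that p-values measure may be in part technical.

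The integrated stress response starts from kinases that phosphorylate the translation factor eIF2 when amino acids are short, proteins misfold or haem is lacking. General protein synthesis then slows while the transcription factor ATF4 is translated more, and ATF4 turns on genes for amino acid supply, redox balance and, under lasting stress, cell death. The unfolded protein response is the reaction of the endoplasmic reticulum (ER) to misfolded protein: the PERK branch feeds into ATF4, the IRE1 branch splices Xbp1 messenger RNA into its active form, and the ATF6 branch, together with spliced XBP1, raises ER chaperones such as HSPA5 (BiP) and HSP90B1 (GRP94). Hepatocytes and plasma cells are secretory cells with a large ER and use this system at rest. ATF4 and XBP1 are controlled largely by translation and splicing, which gene-level counts do not show.

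Short promoter stretches are shown for the members whose RefSeq promoter held a binding motif of these pathways, because these letters are the ones that the factors of these pathways are known to bind. All 10 members matched the RefSeq promoter table (GRCm38.p6), which covers 250 bases before to 50 bases after each gene start. The C/EBP-ATF response element, to which ATF4 binds with a partner, was searched as TGATGNAA on both strands and was present in 4 of 10 members and in 3.97% of 32851 promoters. In the lines below capitals mark this motif or its reverse complement, each stretch is written 5′ to 3′ along the strand of the gene, and the positions are chr1:191183425-191183454 (minus strand) for Atf3, chr2:152344028-152344057 (minus) for Trib3, chr2:119351038-119351067 (plus) for Chac1 and chr6:7693214-7693243 (minus) for Asns.
Atf3: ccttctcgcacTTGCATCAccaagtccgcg
Trib3: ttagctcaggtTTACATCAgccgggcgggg
Chac1: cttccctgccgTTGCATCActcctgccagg
Asns: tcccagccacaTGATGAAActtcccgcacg

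The ER stress response element, bound by ATF6 together with NF-Y, was searched as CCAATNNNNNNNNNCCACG on both strands. It was present in 2 of 10 members, Hspa5 and Hsp90b1, and in 0.119% of all promoters. The Hspa5 stretch lies at chr2:34772020-34772049 (plus strand), and the Hsp90b1 promoter held the element once in each orientation, at chr10:86705632-86705661 and chr10:86705527-86705556 (minus strand).
Hspa5: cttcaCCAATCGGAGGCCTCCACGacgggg
Hsp90b1, first: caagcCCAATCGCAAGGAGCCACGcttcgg
Hsp90b1, second: gagtgCGTGGTGAGGCACGATTGGtgagtt

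The cAMP response element TGACGTCA (1.79% of all promoters), the unfolded protein response element TGACGTGG (0.676%) and the ER stress response element II (0.0365%) were present in 0 of 10 members within this window. No motif overlapped another in these promoters, and a match of letters is a description, not a measured binding site.

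Counts were summed over the exons of each gene. The transcription factor genes are at chr15:80255184-80257541 (Atf4), chr1:191170296-191218039 (Atf3), chr10:127290774-127296288 (Ddit3) and chr11:5520659-5525893 (Xbp1) in GRCm38. Trib3 is at chr2:152337422-152344032, Chac1 at chr2:119351229-119354381, Asns at chr6:7675169-7693254 and Sesn2 at chr4:132492032-132510501. The chaperone genes are at chr2:34771970-34777547 (Hspa5) and chr10:86690209-86705509 (Hsp90b1). A second gene model named Ddit3 overlapped 6.13% of the exon bases of Ddit3 on the same strand and had 0 counts in all 32 libraries. Hsp90b1 shared 5.38% of its exon bases with other models on its own strand and 10.3% with a model on the other strand, and Ddit3 shared 4.73% with models on the other strand. The share of reads that this sets aside is unknown, because the strand setting of the counting is not given in the sources used here.

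Library totals ran from 16767130 to 27693689 counts, and the lowest count of any member in a vehicle library was 54, for Chac1. Host liver contributed to the RNA in widely varying amounts: albumin (Alb) was at 11.01 to 27943 CPM (counts scaled to library size), and a hepatocyte score, averaged in log2 CPM over 25 marker genes, ran from −0.25 to 11.6. The labels call the tissue hepatocellular carcinoma. Of the genes often used to mark hepatocellular carcinoma, Afp was between 0.0449 and 3.54 CPM and Gpc3 between 0.0432 and 22.3 CPM, both near 0 in some libraries, while Krt8 was at 4.54 to 414 CPM and Krt18 at 0.989 to 399 CPM. High-dose replicate 1 stood apart, with the highest hepatocyte score (11.6), 5.37% mitochondrial counts and a TMM scaling factor of 0.678, the lowest of all libraries. In bulk tissue, fewer cells of a type and less RNA per cell cannot be told apart.

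In vehicle tumours the ER chaperones were the most abundant members. In RPKM (counts scaled by library size and by kilobases of exon), over the 11 vehicle libraries of 3 separately normalized cohorts, Hsp90b1 was at 289 ± 61.9 (SD) and Hspa5 at 223 ± 30.04, and their ranges overlapped. Atf4 followed at 122 ± 17.5 RPKM and Xbp1 at 52.5 ± 7.65 RPKM, each below every library of the gene before it. Asns, the enzyme that makes asparagine, was at 32.4 ± 13.1 RPKM and reached into the range of Xbp1. The other stress outputs were lower: Ddit3 12.9 ± 3.49 RPKM, Atf3 10.96 ± 3.10 RPKM, Trib3 7.05 ± 4.29 RPKM, Sesn2 6.07 ± 2.24 RPKM and Chac1 5.62 ± 3.60 RPKM, with ranges that overlapped from each gene to the next.

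Members differed in how far libraries of the same group lay apart. The SD of log2 CPM within groups was 0.22 for Atf4, and only 11.5% of 15429 genes had a smaller one. It was 0.25 for Hsp90b1, 0.26 for Hspa5 and 0.27 for Xbp1, below the median of all genes (0.42). It was 0.44 for Sesn2, 0.48 for Ddit3, 0.49 for Asns, 0.51 for Trib3 and 0.68 for Chac1. Atf3, an immediate-early stress factor, had the widest spread of the members at 0.77, wider than 83.9% of genes.

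Vehicle replicate 4 of the DC-101 cohort was the lowest of its 4 libraries for 10 of 10 members. Within the dose cohort, vehicle replicate 4 was the highest for 7 of 10. In the anti-PD1 cohort, vehicle replicate 2 was the lowest for 8 of 10 members and vehicle replicate 3 the highest for 7 of 10. All treated groups of a cohort share these vehicle libraries, and values without one of them are given for some of the comparisons below.

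**Figure D1:**
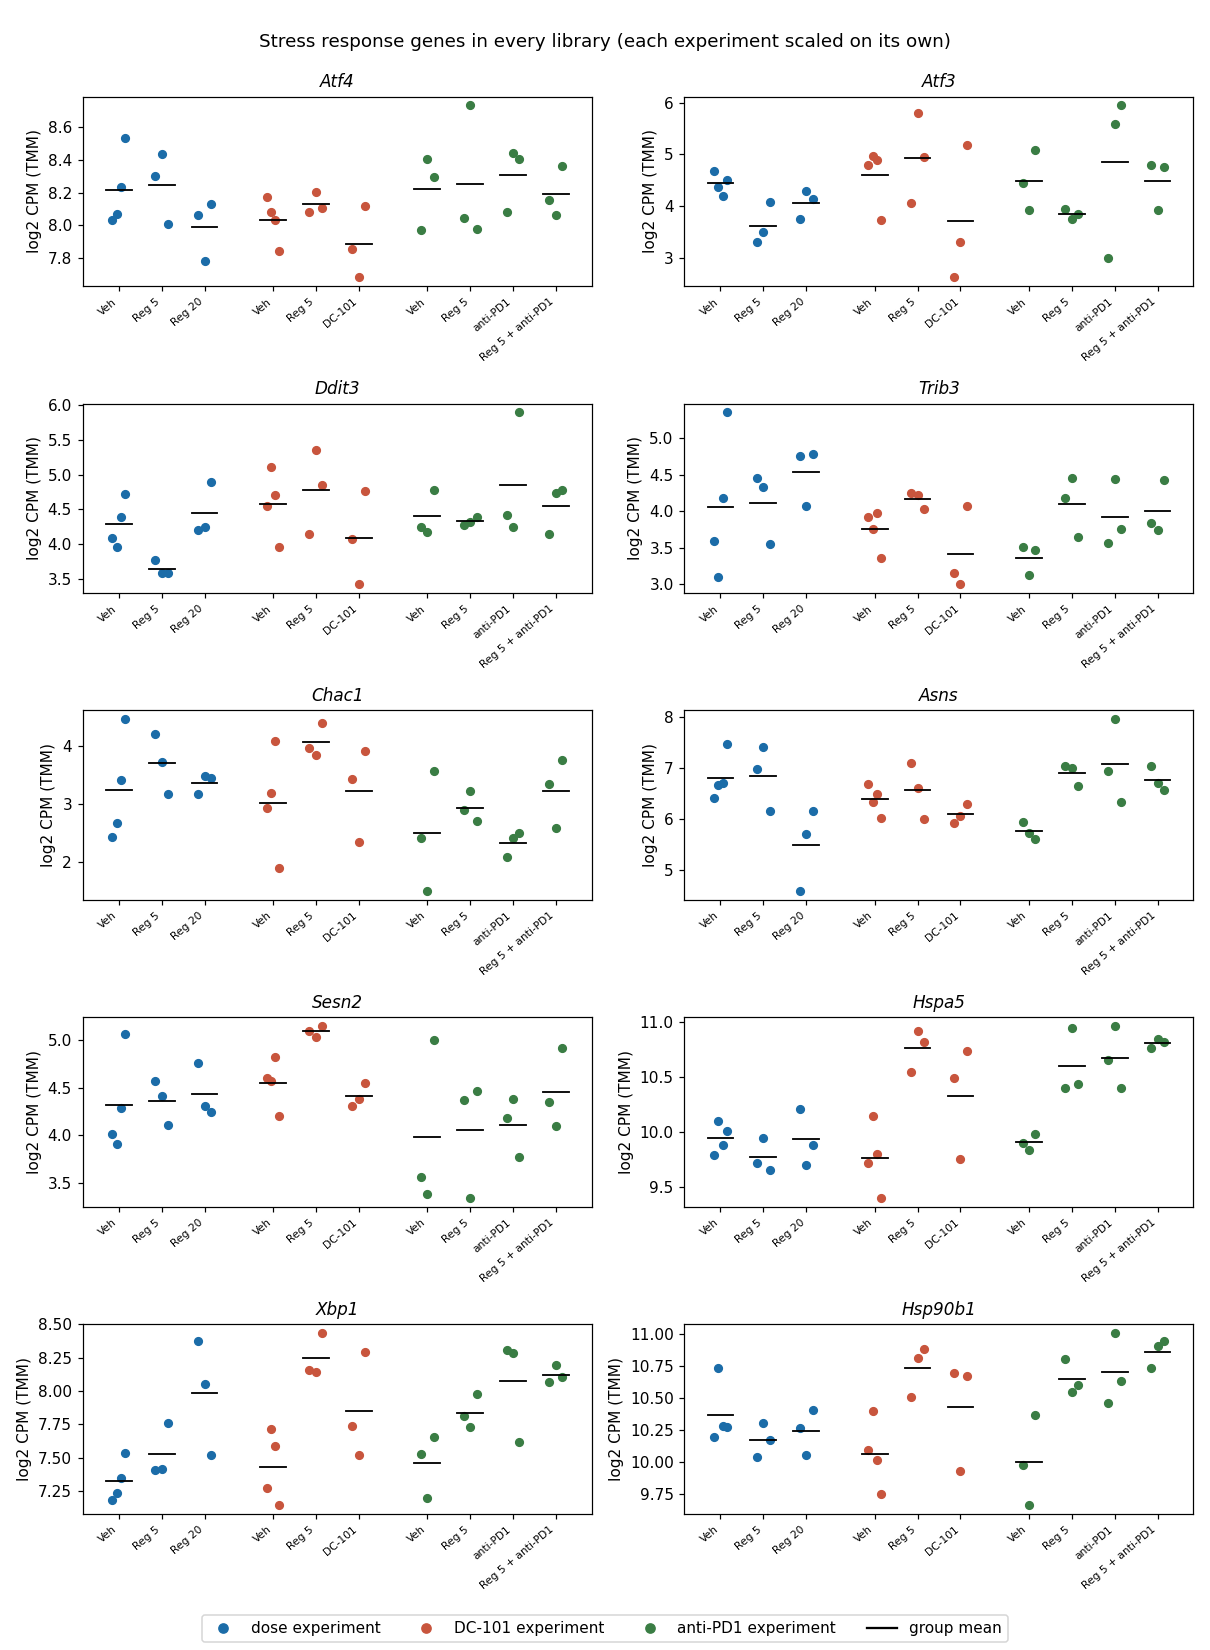
Level of each of the 10 genes (vertical axis, log2 CPM, scaled within each cohort) in all 32 libraries, with 1 panel per gene, 1 point per library, a line at each group mean and a colour for each cohort, which the panels call an experiment. Hspa5 and Hsp90b1 sit above the vehicle libraries in all 9 treated libraries of the anti-PD1 cohort, while Atf3 and Chac1 scatter widely within groups.

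Over all comparisons, the members called by the edgeR quasi-likelihood F-test (Benjamini-Hochberg adjustment over all genes, threshold 0.05) came to Xbp1 alone, at the high dose and in the low dose fit over 3 cohorts. The high dose against vehicle had 1 of 10 members past the threshold, against 15.6% of all genes (8.8% called higher). High against low dose had 0 of 10, against 4.22% of all genes (1.74% called higher), and 3 of 10 at an unadjusted p under 0.05, which 29.3% of all genes had. At the high dose against vehicle 2 of 10 were under 0.05 unadjusted, against 40.1% of all genes. The low dose against vehicle had 0 of 10 in the dose cohort (background 0%), 0 of 10 in the DC-101 cohort (0.0248%) and 0 of 10 in the anti-PD1 cohort (0%), with 2, 4 and 4 members at an unadjusted p under 0.05, against 4.94%, 17.1% and 11.8% of all genes. DC-101 had 0 of 10 (0%) and 1 at an unadjusted p under 0.05 (13.2% of all genes), anti-PD1 had 0 of 10 (0%) and 4 (13.7%), and the combination had 0 of 10 (0%) and 4 (8.20%). The low dose over 3 cohorts had 1 of 10 past the threshold, against 1.77% of all genes (0.733% called higher).

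DESeq2 called more genes than edgeR in every comparison, and more members in all but the low dose of the dose cohort and DC-101. At the low dose it called 0 members in the dose cohort (0.518% of all genes), Sesn2, Hspa5, Xbp1 and Hsp90b1 in the DC-101 cohort (7.09%) and Hspa5 in the anti-PD1 cohort (2.57%). It called Asns and Xbp1 at the high dose (32.2%), Ddit3 and Asns between the doses (18.6%), 0 members under DC-101 (2.36%), Asns and Hspa5 under anti-PD1 (3.71%), and Hspa5 and Hsp90b1 under the combination (0.942%). Over 3 cohorts it called Hspa5 and Xbp1 (5.76%). Limma voom called Xbp1 over 3 cohorts (1.95% of all genes) and 0 members elsewhere, where it called 8.06% of genes at the high dose, 4.7% between the doses, 0.0248% for the low dose in the DC-101 cohort and 0% in the rest.

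Whether treated and vehicle libraries overlapped is given next, by cohort. At the low dose in the dose cohort, 0 of 10 members lay wholly above vehicle (6.92% of all genes did) and 2 of 10 wholly below (6.99%). At the high dose 0 of 10 lay above (11.8%) and 1 of 10 below (16.6%), and between the doses 1 of 10 lay above (11.6%) and 0 of 10 below (16.2%). Within the DC-101 cohort, 5 of 10 members lay wholly above vehicle at the low dose (6.93%) and 0 of 10 below (9.48%), whereas DC-101 placed 0 of 10 above (5.25%) and 0 of 10 below (8.19%). In the anti-PD1 cohort, 5 of 10 lay wholly above vehicle at the low dose (6.68%), 4 of 10 under anti-PD1 (7.42%) and 5 of 10 under the combination (9.58%), and 0 of 10 lay below in any of the 3 (7.36%, 9.2% and 8.12%).

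**Figure D2:**
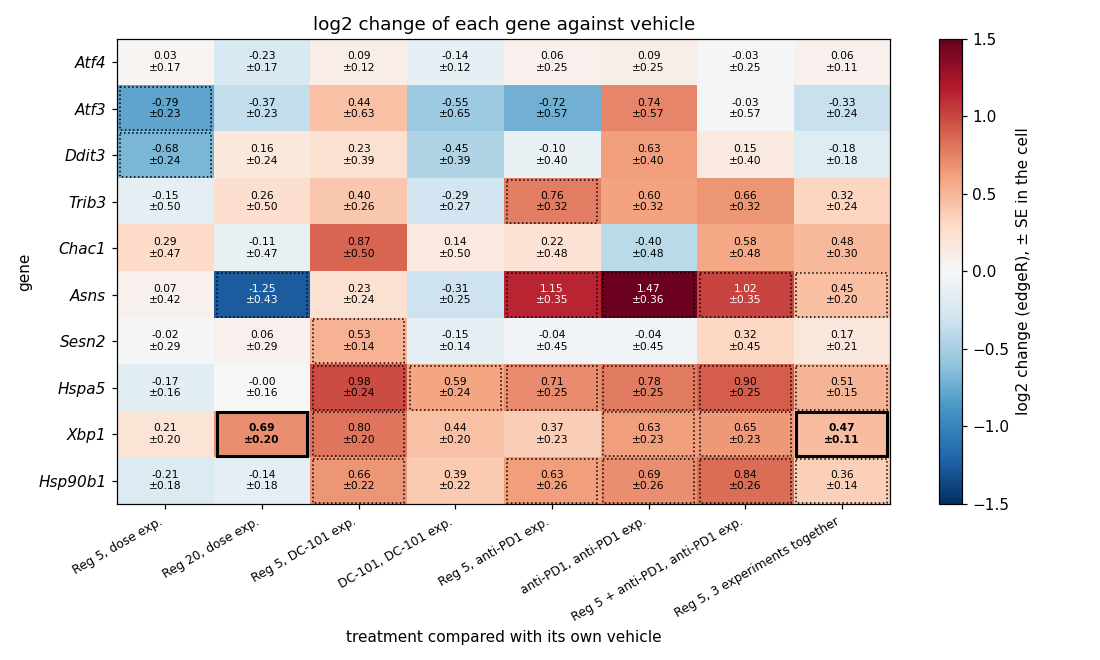
Log2 change against vehicle of the 10 genes (rows) in 7 comparisons and in the low dose fit over 3 cohorts (columns), as colour and as the printed value ± SE from edgeR; a heavy box marks an adjusted p under 0.05 and a dotted box an unadjusted p under 0.05. Only Xbp1 has heavy boxes, at the high dose (0.69) and over 3 cohorts (0.47), and Hspa5 ranges from −0.17 at the low dose in the dose cohort to 0.98 at the low dose in the DC-101 cohort.

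Atf4, the central transcription factor of the integrated stress response, was the steadiest member. Within the dose cohort it was at 8.03, 8.07, 8.24 and 8.53 log2 CPM in vehicle, 8.30, 8.44 and 8.01 at the low dose and 8.07, 7.78 and 8.13 at the high dose. The treated and vehicle libraries overlapped at both doses. Its log2 change was 0.03 ± 0.17 (SE) at the low dose and −0.23 ± 0.17 at the high dose. In the other 2 cohorts it lay between −0.14 and 0.09 in all 5 comparisons with vehicle. Over 3 cohorts the low dose change was 0.06 ± 0.11 (adjusted p = 0.825).

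Atf3, a stress-induced repressor and activator of transcription, was lower at the low dose in the dose cohort only by unadjusted values. It was at 4.69, 4.37, 4.20 and 4.52 log2 CPM in vehicle, 3.30, 3.50 and 4.08 at the low dose, and 3.76, 4.30 and 4.14 at the high dose. All 3 low-dose libraries lay below all 4 vehicle libraries, and the high-dose libraries reached into the vehicle range. The log2 change was −0.79 ± 0.23 at the low dose (adjusted p = 0.795) and −0.37 ± 0.23 at the high dose (adjusted p = 0.249).

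In the DC-101 cohort Atf3 was at 4.79, 4.98, 4.89 and 3.73 log2 CPM in vehicle, 4.05, 5.81 and 4.95 at the low dose, and 2.63, 3.32 and 5.19 under DC-101. The DC-101 libraries spanned more than the vehicle libraries in both directions, and the groups overlapped. Without vehicle replicate 4 the low dose change went from 0.44 to 0.22 and the DC-101 change from −0.55 to −0.76. With any 1 library left out the low dose change ran from −0.08, without low-dose replicate 2, to 0.77, without low-dose replicate 1. The DC-101 change ran from −1.67, without DC-101 replicate 3, to −0.09, without DC-101 replicate 1. Within the anti-PD1 cohort Atf3 was at 4.45, 3.92 and 5.09 in vehicle, 3.95, 3.75 and 3.84 at the low dose, 3.01, 5.59 and 5.95 under anti-PD1, and 4.79, 3.92 and 4.75 under the combination. Anti-PD1 replicate 1 was the lowest and replicate 3 the highest of these 12 libraries.

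Ddit3 (CHOP), the pro-apoptotic factor of prolonged ER stress, was at 4.09, 3.95, 4.39 and 4.73 log2 CPM in vehicle, 3.77, 3.59 and 3.58 at the low dose, and 4.21, 4.24 and 4.90 at the high dose of the dose cohort. The low-dose libraries lay below every vehicle library and every high-dose library, and the high-dose and vehicle libraries overlapped. Its log2 change was −0.68 ± 0.24 at the low dose (adjusted p = 0.918) and 0.16 ± 0.24 at the high dose (adjusted p = 0.629), the latter running from −0.15, without high-dose replicate 3, to 0.33, without vehicle replicate 4. Between the doses, the high dose was higher by 0.85 ± 0.26 (adjusted p = 0.0892), and DESeq2 placed this difference past the threshold (0.87, adjusted p = 0.0211).

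Macrophage markers also differed between these doses: 9 of 9 were lower at the high dose than at the low dose, 8 of them past the threshold. Their summed level was 1729 to 3220 CPM in vehicle, 3867 to 4467 CPM at the low dose and 599 to 1460 CPM at the high dose, with no marker at 0. In the same comparison 25 of 25 hepatocyte markers (median 2.34) and 8 of 8 plasma cell and B cell markers (median 3.52) were higher. So were 8 of 8 T and NK cell markers (median 0.71), with 0 past the threshold in any of these 3 lists. The part of macrophages, plasma cells and T and NK cells in the Ddit3 values was not tested. Without high-dose replicate 3, the highest Ddit3 library, the difference between the doses was 0.54 (adjusted p = 0.110), and without replicate 1 it was 0.99 (adjusted p = 0.0775).

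Outside the dose cohort, Ddit3 groups overlapped in every comparison. It was at 4.54, 5.11, 4.70 and 3.96 log2 CPM in vehicle of the DC-101 cohort, 4.14, 5.36 and 4.85 at the low dose and 4.07, 3.42 and 4.76 under DC-101. In the anti-PD1 cohort it was at 4.25, 4.18 and 4.78 in vehicle, 4.28, 4.32 and 4.39 at the low dose, 4.41, 4.25 and 5.90 under anti-PD1, and 4.14, 4.73 and 4.78 under the combination. A single library, anti-PD1 replicate 3, stood above the rest.

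Trib3, a pseudokinase that feeds back on ATF4, did not separate from vehicle in the dose cohort, where vehicle ran from 3.10 to 5.36 log2 CPM, the low dose from 3.55 to 4.46 and the high dose from 4.07 to 4.79. Its change there turned on vehicle replicate 4, the highest of the 10 libraries. With that library the log2 change was −0.15 ± 0.50 at the low dose and 0.26 ± 0.50 at the high dose, and without it 0.48 and 0.88 (adjusted p = 0.953 and 0.125). Within the DC-101 cohort the low-dose libraries (4.03 to 4.25 log2 CPM) lay above the vehicle libraries (3.36 to 3.98), a change of 0.40 ± 0.26 (adjusted p = 0.438).

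In the anti-PD1 cohort, Trib3 was at 3.51, 3.12 and 3.47 log2 CPM in vehicle. It was at 4.19, 4.46 and 3.65 at the low dose, 3.56, 4.44 and 3.76 under anti-PD1, and 3.84, 3.75 and 4.43 under the combination. All 9 treated libraries lay above the 3 vehicle libraries. The log2 changes were 0.76 ± 0.32 (adjusted p = 0.385), 0.60 ± 0.32 (adjusted p = 0.436) and 0.66 ± 0.32 (adjusted p = 0.629). The anti-PD1 change was 0.30 without anti-PD1 replicate 2, and the combination change was 0.42 without combination replicate 3.

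Chac1, which degrades glutathione and is a sensitive target of ATF4, overlapped with vehicle in every comparison. Vehicle libraries alone ran from 2.44 to 4.47 log2 CPM in the dose cohort, from 1.90 to 4.09 in the DC-101 cohort and from 1.50 to 3.57 in the anti-PD1 cohort. The largest change was at the low dose in the DC-101 cohort (0.87 ± 0.50, adjusted p = 0.380), and without vehicle replicate 4 it was 0.60. Within the dose cohort the low dose change was 0.29 ± 0.47 with vehicle replicate 4 and 0.86 without it.

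Asns was the member with the widest range over all libraries, 4.59 to 7.97 log2 CPM, and its changes had opposite signs in different settings. In the dose cohort it was at 6.41, 6.67, 6.72 and 7.48 in vehicle, 6.98, 7.42 and 6.16 at the low dose, and 4.59, 5.72 and 6.17 at the high dose. All 3 high-dose libraries lay below the vehicle libraries, and the low-dose libraries overlapped with both groups. Its log2 change at the high dose was −1.25 ± 0.43 (adjusted p = 0.0672), and against the low dose it was −1.31 ± 0.45 (adjusted p = 0.111).

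High-dose replicate 1 had the lowest Asns value and replicate 3 the highest of the 3. Without replicate 3 the change against vehicle was −1.64 (adjusted p = 0.0271) and against the low dose −1.71 (adjusted p = 0.0396), both past the threshold. Without replicate 1 the values were −0.89 (adjusted p = 0.185) and −0.96 (adjusted p = 0.215). DESeq2 gave −1.20 (adjusted p = 0.0285) against vehicle and −1.29 (adjusted p = 0.0451) against the low dose. The hepatocyte score was 11.6, 9.08 and 6.20 in these 3 libraries, in the order opposite to Asns, and adjusted for the score the change against vehicle was −0.86 (adjusted p = 0.323).

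Within the anti-PD1 cohort Asns was higher in every treated library. It was at 5.95, 5.73 and 5.62 log2 CPM in vehicle, 7.06, 7.02 and 6.65 at the low dose, 6.94, 7.97 and 6.35 under anti-PD1, and 7.04, 6.71 and 6.57 under the combination. The lowest treated library exceeded the highest vehicle library, and the adjusted p nevertheless missed the threshold in each group. The log2 changes were 1.15 ± 0.35 (adjusted p = 0.269), 1.47 ± 0.36 (adjusted p = 0.249) and 1.02 ± 0.35 (adjusted p = 0.498). Of 25 hepatocyte markers, 22 were lower at the low dose (median −1.76), 24 under anti-PD1 (median −2.22) and 10 under the combination (median 0.08), with 0 past the threshold in edgeR and 12, 22 and 2 at an unadjusted p under 0.05. Adjusted for the hepatocyte score, the changes of Asns were 1.46 (adjusted p = 0.462), 1.91 (adjusted p = 0.738) and 1.07 (adjusted p = 0.519).

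DESeq2 called the anti-PD1 value of Asns (1.48, adjusted p = 0.0102) and neither of the other 2. Leaving out 1 library at a time moved the anti-PD1 change between 0.91 and 1.78. In the DC-101 cohort Asns was at 6.69, 6.35, 6.51 and 6.02 log2 CPM in vehicle, 7.11, 6.62 and 6.01 at the low dose and 5.93, 6.06 and 6.30 under DC-101. The groups overlapped, with log2 changes of 0.23 ± 0.24 and −0.31 ± 0.25 (adjusted p = 0.640 and 0.603). With 1 library left out the low dose change ran from −0.07, without low-dose replicate 1, to 0.47, without low-dose replicate 3, and the DC-101 change from −0.42 to −0.20.

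Sesn2, a leucine sensor and antioxidant regulator that dampens mTORC1, separated from vehicle in a single comparison. Within the DC-101 cohort it was at 4.60, 4.57, 4.81 and 4.20 log2 CPM in vehicle, 5.09, 5.03 and 5.14 at the low dose, and 4.31, 4.38 and 4.55 under DC-101. The 3 low-dose libraries lay close together above all vehicle libraries. The low dose change was 0.53 ± 0.14 (adjusted p = 0.146; DESeq2 adjusted p = 0.0183), and without vehicle replicate 4 it was 0.42 (adjusted p = 0.271). In the other 2 cohorts its log2 changes lay between −0.04 and 0.32, with overlapping libraries. Its signs in the dose cohort turned with single libraries: the low dose change ran from −0.15 to 0.30 and the high dose change from −0.10 to 0.38, both highest without vehicle replicate 4. Without vehicle replicate 3 of the anti-PD1 cohort, the highest of its 3 libraries, the changes of Sesn2 there were 0.66 in place of −0.04 at the low dose, 0.66 in place of −0.04 under anti-PD1 and 1.02 in place of 0.32 under the combination. Those of Chac1 were 0.93 in place of 0.22, 0.32 in place of −0.40 and 1.30 in place of 0.58.

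Xbp1, the transcription factor of the IRE1 branch, was higher at the high dose. In the dose cohort it was at 7.19, 7.24, 7.34 and 7.53 log2 CPM in vehicle, 7.41, 7.42 and 7.76 at the low dose, and 8.38, 8.05 and 7.52 at the high dose. Group means thus stood at 7.33, 7.53 and 7.98 in the order of dose, and high-dose replicate 3 remained within the vehicle range. The high dose raised Xbp1 by 0.69 ± 0.20 on the log2 scale, a 1.62-fold change (adjusted p = 0.0484). The low dose change was 0.21 ± 0.20 (adjusted p = 0.991), and the difference between the doses was 0.49 ± 0.22 (adjusted p = 0.171).

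The high-dose call for Xbp1 was close to the threshold. It was lost without the filter on low counts (adjusted p = 0.0823), in limma voom (adjusted p = 0.0670) and with the replicate block (adjusted p = 0.199), and when any 1 of 6 libraries was left out. Without any 1 of the 4 vehicle libraries the adjusted p was 0.115, 0.0999, 0.109 and 0.0864 in replicate order. Without high-dose replicate 1 the change was 0.49 (adjusted p = 0.0931) and without replicate 2 it was 0.69 (adjusted p = 0.0880). Without replicate 3 it was 0.84 (adjusted p = 0.00916), and the difference between the doses was then 0.63 (adjusted p = 0.0332). Without high-dose replicate 1 that difference was 0.28 (adjusted p = 0.415).

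Markers of secretory cells moved with Xbp1 in these libraries. Of 25 hepatocyte markers, 25 were higher at the high dose, 3 of them past the threshold, and their summed level was 1785 to 10985 CPM in vehicle, 3543 to 38750 CPM at the low dose and 4905 to 137970 CPM at the high dose. Of 8 tested plasma cell and B cell markers, 8 were higher, 5 past the threshold, with sums of 41.5 to 68.6 CPM in vehicle, 86.4 to 123 CPM at the low dose and 39.6 to 3753 CPM at the high dose. No marker of either list was at 0 in these groups. High-dose replicate 3, the lowest Xbp1 library of its group, had a hepatocyte score of 6.20, within the vehicle range of 4.09 to 7.24, and a plasma cell and B cell score of −0.02. Adjusted for the hepatocyte score, the high-dose change of Xbp1 was 0.25 (adjusted p = 0.445). Of 8 T and NK cell markers 8 were also higher at the high dose (median 1.73, 4 past the threshold). Of 9 macrophage markers 9 were lower (median −1.42, 8 past the threshold). The part of plasma cells, T and NK cells and macrophages was not tested.

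**Figure D3:**
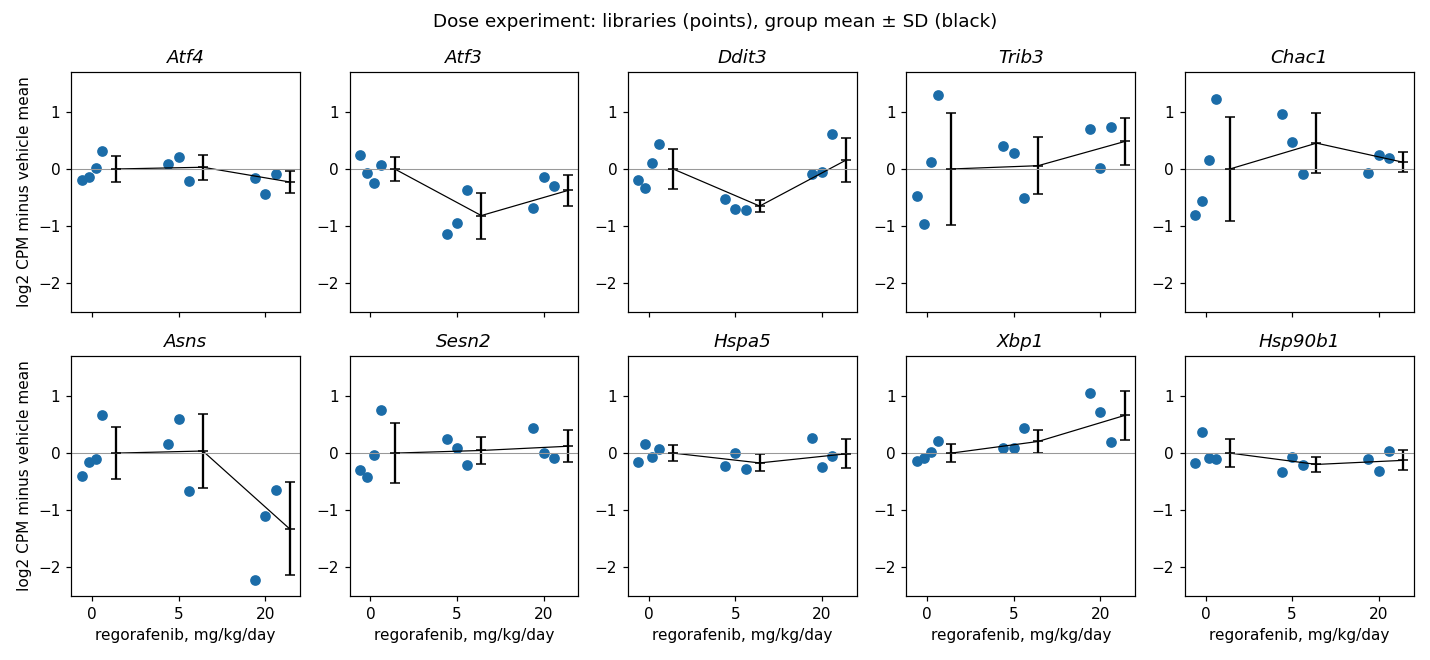
Log2 CPM minus the vehicle mean for the 10 genes in the dose cohort, against regorafenib at 0, 5 and 20 mg/kg/day in evenly spaced positions, with 1 point per library and the group mean ± SD in black beside the points. The Xbp1 mean is higher at each step of dose, the Asns libraries at 20 mg/kg/day lie below all vehicle libraries, and Ddit3 is lowest at 5 mg/kg/day.

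At the low dose in the DC-101 cohort, Xbp1 was at 8.16, 8.14 and 8.44 log2 CPM, against 7.27, 7.71, 7.59 and 7.15 in vehicle and 7.74, 7.52 and 8.29 under DC-101. The low-dose libraries lay above every vehicle library, while the DC-101 libraries overlapped with both groups. The log2 change was 0.80 ± 0.20 at the low dose (adjusted p = 0.131; DESeq2 adjusted p = 0.00958) and 0.44 ± 0.20 under DC-101 (adjusted p = 0.386). Without vehicle replicate 4 these were 0.71 (adjusted p = 0.301) and 0.35 (adjusted p = 0.594). Without DC-101 replicate 3 the DC-101 change was 0.19, and without DC-101 replicate 2 it was 0.63. Of 25 hepatocyte markers 25 were higher at the low dose and 24 under DC-101, and their sums ran from 143 to 7015 CPM in vehicle, 2658 to 28426 CPM at the low dose and 126 to 40296 CPM under DC-101, with no marker at 0. Adjusted for the hepatocyte score, the low dose changes were 0.54 for Xbp1 (adjusted p = 0.572) and 0.93 for Hspa5 (adjusted p = 0.512). Of 9 endothelial markers 8 were lower at the low dose and under DC-101 (medians −1.49 and −1.35), 6 at an unadjusted p under 0.05 in each. Of 5 neutrophil markers 5 were higher in both (medians 1.53 and 0.32). In these 2 lists 0 were past the threshold in edgeR, and the part of these 2 cell types was not tested.

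Within the anti-PD1 cohort Xbp1 was at 7.53, 7.20 and 7.66 log2 CPM in vehicle, 7.81, 7.73 and 7.97 at the low dose, 8.31, 8.29 and 7.62 under anti-PD1, and 8.07, 8.19 and 8.11 under the combination. Of the 9 treated libraries 8 lay above all vehicle libraries, anti-PD1 replicate 3 being the exception. The log2 changes were 0.37 ± 0.23 (adjusted p = 0.596), 0.63 ± 0.23 (adjusted p = 0.288) and 0.65 ± 0.23 (adjusted p = 0.518). Of 8 tested plasma cell and B cell markers 8 were higher at the low dose, 3 under anti-PD1 and 8 under the combination, none past the threshold in edgeR and 7, 1 and 5 at an unadjusted p under 0.05. Their sums were 19.7 to 62.8 CPM in vehicle, with Tnfrsf17 at 0, 121 to 346 CPM at the low dose, 38.1 to 55.4 CPM under anti-PD1 and 128 to 463 CPM under the combination, and their part in the Xbp1 values was not tested.

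Over the 3 cohorts together, Xbp1 rose at the low dose by 0.47 ± 0.11 on the log2 scale, 1.38-fold (adjusted p = 0.0323, 11 vehicle and 9 low-dose libraries). The fit gave each cohort its own baseline. The adjusted p rose above 0.05 when any of 7 libraries was left out: in the DC-101 cohort vehicle replicate 1 (0.0632) or 4 (0.0557) and low-dose replicate 1 (0.0693), 2 (0.0599) or 3 (0.0506), and in the anti-PD1 cohort vehicle replicate 2 (0.0505) and low-dose replicate 3 (0.0550). The change itself stayed between 0.41 and 0.50 throughout. Without the DC-101 cohort it was 0.28 (adjusted p = 0.449), without the anti-PD1 cohort 0.51 (adjusted p = 0.0557), and without the dose cohort 0.59 (adjusted p = 0.134). Adjusted for the hepatocyte score it was 0.36 (adjusted p = 0.0843), and without the filter on low counts 0.47 (adjusted p = 0.0862). In the same fit 24 of 25 hepatocyte markers were higher, with a median log2 change of 1.43 and 0 past the threshold in edgeR, and 5 of 5 tested plasma cell and B cell markers were higher, 2 past the threshold, with a median of 1.11. Of 9 endothelial markers 8 were lower, 6 of them past the threshold, with a median of −1.22, and 5 of 5 erythrocyte markers were lower, 0 past the threshold in edgeR and 4 at an unadjusted p under 0.05, with a median of −2.29. All 9 of 9 macrophage markers were higher, 2 past the threshold, with a median of 0.24. The part of plasma cells, endothelial cells, erythrocytes and macrophages was not tested.

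Hspa5 (BiP), the ER chaperone that also holds the stress sensors inactive, did not separate from vehicle in the dose cohort. It was at 9.79, 10.10, 9.88 and 10.01 log2 CPM in vehicle, 9.72, 9.94 and 9.66 at the low dose, and 10.21, 9.71 and 9.89 at the high dose. The 3 groups overlapped, with log2 changes of −0.17 ± 0.16 at the low dose and −0.0024 ± 0.16 at the high dose (adjusted p = 0.991 and 0.993).

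In the DC-101 cohort, Hspa5 was at 9.72, 10.15, 9.81 and 9.40 log2 CPM in vehicle, 10.55, 10.92 and 10.82 at the low dose, and 10.49, 9.76 and 10.73 under DC-101. All low-dose libraries lay above all vehicle libraries, and DC-101 replicate 2 fell within the vehicle range. The low dose change was 0.98 ± 0.24 (1.97-fold, adjusted p = 0.125), and DESeq2 gave 0.99 with an adjusted p of 0.00418. Under DC-101 the change was 0.59 ± 0.24 (adjusted p = 0.357). Both comparisons share the vehicle libraries, and without vehicle replicate 4 the changes were 0.87 (adjusted p = 0.287) and 0.48 (adjusted p = 0.571). Leaving out DC-101 replicate 3 gave a DC-101 change of 0.38, and leaving out DC-101 replicate 2 gave 0.86.

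Within the anti-PD1 cohort, Hspa5 was at 9.90, 9.84 and 9.99 log2 CPM in vehicle, 10.40, 10.95 and 10.44 at the low dose, 10.66, 10.97 and 10.40 under anti-PD1, and 10.76, 10.85 and 10.82 under the combination. Every treated library exceeded every vehicle library. The log2 changes were 0.71 ± 0.25 (adjusted p = 0.309), 0.78 ± 0.25 (adjusted p = 0.251) and 0.90 ± 0.25 (adjusted p = 0.475). DESeq2 placed all 3 past the threshold (adjusted p = 0.0467, 0.0178 and 0.0111). With any 1 library left out, these changes ran from 0.52 to 0.81, from 0.63 to 0.92 and from 0.87 to 0.95. These comparisons share the vehicle libraries.

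Most hepatocyte markers lay below vehicle in that cohort under the single agents, with 0 of 25 past the threshold in edgeR. Of 25, 22 were lower at the low dose and 24 lower under anti-PD1, with 12 and 22 at an unadjusted p under 0.05, and 15 were higher under the combination. Their summed level was 11899 to 17634 CPM in vehicle, 1347 to 6516 CPM at the low dose, 1151 to 3536 CPM under anti-PD1 and 5328 to 25438 CPM under the combination, with no marker at 0. Adjusted for the hepatocyte score, the Hspa5 changes were 0.81, 0.94 and 0.93. Of 5 erythrocyte markers 5 were lower in each treated group (medians −2.80, −2.55 and −2.43), with 5, 5 and 4 at an unadjusted p under 0.05. Of 9 endothelial markers 8 were lower in each (medians −0.99, −0.63 and −0.59), with 7, 3 and 3 at an unadjusted p under 0.05. In both lists 0 were past the threshold in edgeR, and the part of these 2 cell types was not tested.

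**Figure D4:**
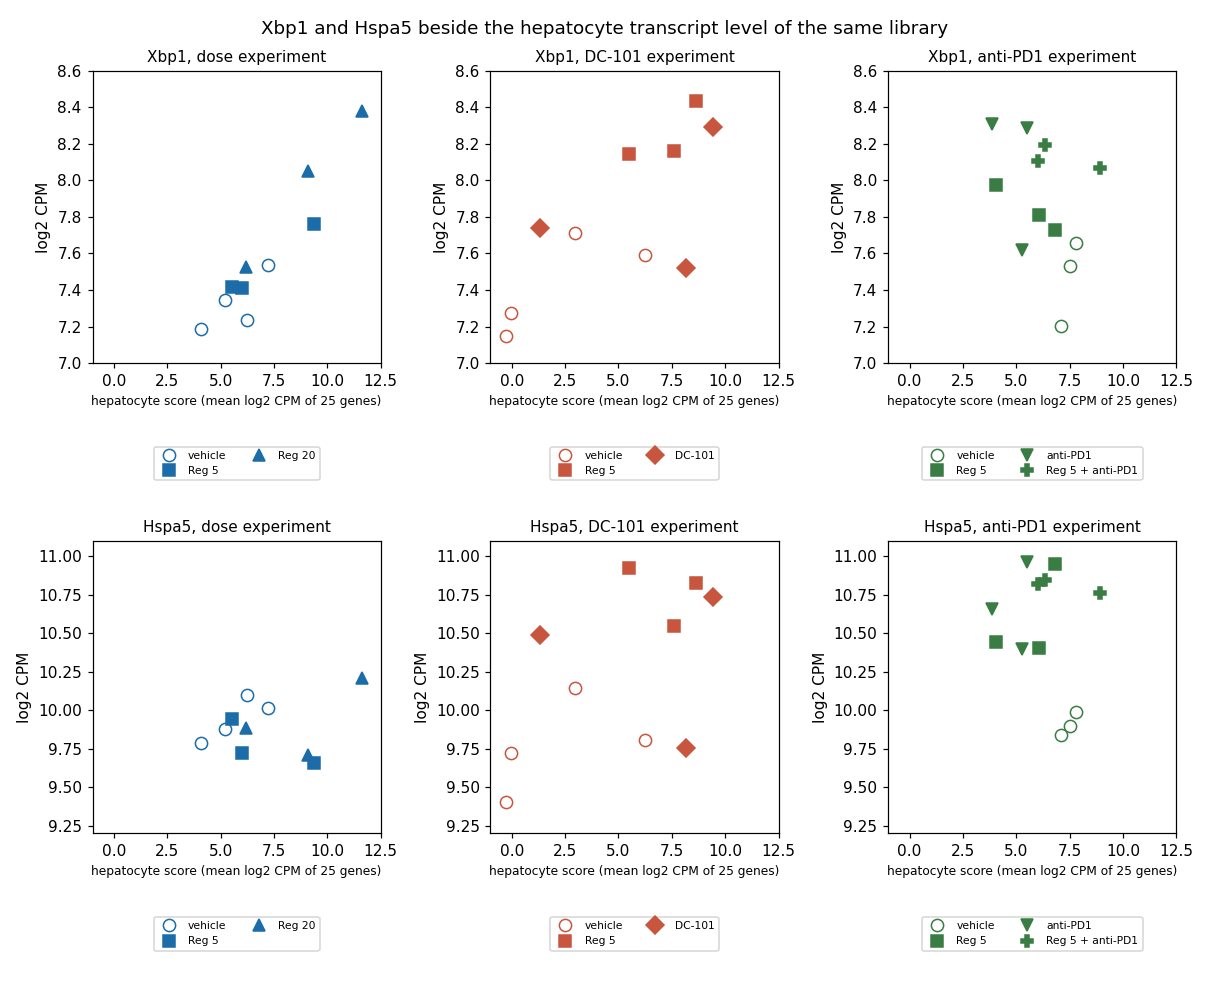
Log2 CPM of Xbp1 (top) and Hspa5 (bottom) against the hepatocyte score of the same library (mean log2 CPM of 25 hepatocyte genes), 1 panel per cohort and 1 point per library. In the dose cohort the 2 high-dose libraries with the highest Xbp1 are also high in the score (11.6 and 9.08), and in the anti-PD1 cohort treated libraries exceed vehicle in Hspa5 at scores below all 3 vehicle libraries, apart from 1 combination library with a score of 8.92.

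Hsp90b1 (GRP94) is the ER counterpart of HSP90. Within the DC-101 cohort it was at 10.09, 10.40, 10.01 and 9.75 log2 CPM in vehicle, 10.51, 10.81 and 10.89 at the low dose, and 10.70, 9.93 and 10.67 under DC-101. The low-dose libraries lay above all vehicle libraries and the DC-101 libraries overlapped with them. The log2 change was 0.66 ± 0.22 at the low dose (adjusted p = 0.187; DESeq2 adjusted p = 0.0424) and 0.39 ± 0.22 under DC-101 (adjusted p = 0.436), and without vehicle replicate 4 it was 0.57 (adjusted p = 0.407) and 0.30 (adjusted p = 0.657). The DC-101 change was 0.29 without DC-101 replicate 3 and 0.64 without DC-101 replicate 2.

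In the anti-PD1 cohort Hsp90b1 was at 9.97, 9.66 and 10.36 log2 CPM in vehicle, 10.80, 10.55 and 10.60 at the low dose, 10.46, 11.01 and 10.63 under anti-PD1, and 10.73, 10.91 and 10.95 under the combination. All 9 treated libraries again lay above vehicle. The log2 changes were 0.63 ± 0.26 (adjusted p = 0.385), 0.69 ± 0.26 (adjusted p = 0.294) and 0.84 ± 0.26 (adjusted p = 0.483; DESeq2 adjusted p = 0.0441), and with any 1 library left out they ran from 0.48 to 0.83, from 0.53 to 0.90 and from 0.69 to 1.04. Within the dose cohort it was at 10.20, 10.73, 10.28 and 10.27 in vehicle, 10.04, 10.31 and 10.17 at the low dose, and 10.27, 10.06 and 10.41 at the high dose, with log2 changes of −0.21 ± 0.18 and −0.14 ± 0.18 and overlapping libraries. Without vehicle replicate 2, the highest of these, the changes were −0.075 and 0.0072.

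Over 3 cohorts, the low dose change of Hspa5 was 0.51 ± 0.15 (adjusted p = 0.0920; DESeq2 adjusted p = 0.0267). Without the dose cohort it was 0.84 (adjusted p = 0.0479), past the threshold. The change of Hsp90b1 was 0.36 ± 0.14 (adjusted p = 0.215) and that of Asns 0.45 ± 0.20 (adjusted p = 0.268). The other members had changes of −0.33 for Atf3, −0.18 for Ddit3, 0.17 for Sesn2, 0.32 for Trib3 and 0.48 for Chac1, with adjusted p-values from 0.465 to 0.746. The value was −0.56 for Atf3 and −0.31 for Ddit3 when the DC-101 cohort lacked low-dose replicate 2, 0.36 for Sesn2 without vehicle replicate 3 of the anti-PD1 cohort, and 0.53 for Trib3 without vehicle replicate 4 of the dose cohort.

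Whether the low dose acted alike in the 3 cohorts was tested by an F-test of the treatment by cohort terms. It had 0 of 10 members past the threshold (background 0% in edgeR and in voom, 0.671% in DESeq2) and 2 of 10 at an unadjusted p under 0.05, against 9.52% of all genes. The smallest p was that of Hspa5 (adjusted p = 0.392, rank 45 of 15562 genes), whose low dose changes were −0.17, 0.98 and 0.71 in p112, p103 and p101. DESeq2 placed this difference past the threshold (adjusted p = 0.0124). Hsp90b1 came next (adjusted p = 0.428), with changes of −0.21, 0.66 and 0.63.

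Considered as a group, the 10 members had a median log2 change of −0.09 at the low dose in the dose cohort (0.00 over all genes tested), 0.48 in the DC-101 cohort (0.01) and 0.29 in the anti-PD1 cohort (0.03). Of the 10, 4, 10 and 7 had a change above 0 in these comparisons, against 50.1%, 51.3% and 52.9% of all genes tested. These counts can move with 1 library left out, as the sign of Asns, Atf3 and Ddit3 did in the DC-101 cohort. The median was −0.05 at the high dose (0.02 over all genes), −0.14 under DC-101 (−0.01), 0.63 under anti-PD1 (−0.06) and 0.61 under the combination (−0.05). Of the 4 genes that exceeded vehicle in all 9 treated libraries of the anti-PD1 cohort, Hspa5 and Hsp90b1 are ER chaperones and Asns and Trib3 are ATF4 targets, and 1.75% of all genes had that pattern.

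The members did not vary as one block across libraries. Each log2 CPM was taken relative to the vehicle mean of its cohort, and correlations over the 32 libraries, which share group and tissue makeup, are given as descriptions. Hspa5 and Hsp90b1, both with the ER stress response element shown above, were closest (r = 0.91), followed by Hspa5 and Xbp1 (0.69), Chac1 and Sesn2 (0.68) and Atf3 and Ddit3 (0.67). Atf4 and Xbp1 were unrelated (−0.04), as were Asns and Xbp1 (0.08).

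Among 15429 genes, those most like Hspa5 over the 32 libraries were Manf (r = 0.94), a secreted ER stress factor, Magt1 (0.93), a subunit of the oligosaccharyltransferase, the chaperone Calr (0.93) and the disulphide isomerases Pdia6 (0.93) and Pdia3 (0.92). The genes most like Ddit3 were of another kind: Pgf (0.74), a VEGF family ligand, Aldoa (0.73), a glycolytic enzyme, Atf3 (0.67), the glucose transporter Slc2a1 (0.67) and the heat shock protein Hspa1b (0.66). Within cohorts, r with Ddit3 was 0.65, 0.91 and 0.79 for Aldoa, 0.87, 0.91 and 0.61 for Slc2a1 and 0.49, 0.87 and 0.54 for Atf3 in p112, p103 and p101. In p112, r with Hspa5 was 0.67 for Manf, 0.85 for Magt1, 0.67 for Calr, 0.68 for Pdia6 and 0.62 for Pdia3. In p103 and p101 these 5 lay between 0.89 and 0.97.

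The wider pathways were followed in 10 lists with 105 further genes, all but 2 of which were tested. At the high dose 11 of them passed the threshold, 6 higher and 5 lower (10.7% of those tested, against 15.6% of all genes). Between the doses 2 did, both higher (1.94% of the lists, against 4.22% of all genes, 1.74% called higher). Over 3 cohorts 5 did, all higher (4.85% of the lists, against 1.77% of all genes). In the other comparisons with vehicle 0 passed by edgeR, with 3 at an unadjusted p under 0.05 at the low dose in the dose cohort, 44 in the DC-101 cohort, 15 in the anti-PD1 cohort, 26 under DC-101, 23 under anti-PD1 and 26 under the combination. Over all genes the shares at an unadjusted p under 0.05 were 4.94%, 17.1%, 11.8%, 13.2%, 13.7% and 8.20% in the same order. Of the high-dose calls, the 10 named in the following paragraphs all missed the threshold without the filter on low counts, with the replicate block and adjusted for the hepatocyte score, and each stayed past it in 1 or 2 of the 7 fits that left out a library. Limma voom called 3 of them (Eif2s1, Nupr1 and Vldlr). Between the doses, Ero1l missed the threshold with the replicate block and stayed past it in 3 of the 6 fits that left out a library. Vldlr missed it there without the filter and with the block, and stayed past it in 2 of the 6. Of the 4 genes named over 3 cohorts, Sdf2l1 stayed past the threshold in 20 of 20 such fits, Creld2 in 18, Sec23b in 14 and Herpud1 in 2, and 0 of the 4 did in edgeR without the DC-101 cohort or without the anti-PD1 cohort. Creld2 missed it with the replicate block and adjusted for the hepatocyte score. Herpud1 missed it without the filter and adjusted for the score, Sec23b without the filter, and Sdf2l1 in none of these alternative fits.

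For ER chaperones and folding enzymes, the family of Hspa5, the median log2 change over 17 genes was 0.79 at the low dose in the DC-101 cohort, 0.57 under DC-101, 0.48 at the low dose in the anti-PD1 cohort, 0.47 under anti-PD1 and 0.64 under the combination. It was 0.06 at the low dose and 0.18 at the high dose in the dose cohort. Of the 17, 17 were above 0 at the low dose in the DC-101 cohort, 15 of them at an unadjusted p under 0.05. Over all genes 51.3% were above 0 there and 17.1% were at an unadjusted p under 0.05. Over 3 cohorts 3 of 17 rose, against 1.77% of all genes called (0.733% called higher), among them Sdf2l1, a cofactor of BiP (1.08 ± 0.21, adjusted p = 0.0106), and Creld2, a secreted ER stress protein (0.69 ± 0.15, adjusted p = 0.0272). Hepatocyte markers had a median of 3.13 at the low dose in the DC-101 cohort, 3.64 under DC-101 and 1.43 over 3 cohorts. In the anti-PD1 cohort their medians were −1.76 at the low dose, −2.22 under anti-PD1 and 0.08 under the combination. In the dose cohort they were 1.56 at the low dose and 3.76 at the high dose. Over 3 cohorts 2 of 5 plasma cell and B cell markers were called higher and 6 of 9 endothelial markers lower. The part of plasma cells and endothelial cells was not tested.

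Among genes that clear or move ER proteins, the low dose over 3 cohorts raised Herpud1, which works in ER-associated degradation (0.63 ± 0.16, adjusted p = 0.0473), and Sec23b, a coat subunit of vesicles leaving the ER (0.38 ± 0.08, adjusted p = 0.0287). At the high dose, ER-associated degradation had 1 of 11 genes past the threshold, against 15.6% of all genes (8.8% called higher). It was Syvn1, a ubiquitin ligase of this process, which rose by 0.91 ± 0.23 (adjusted p = 0.0418). All 11 were above 0, with a median of 0.60, and 51.4% of all genes were above 0. In that comparison 25 of 25 hepatocyte markers were higher (median 3.76, 3 past the threshold), as were 8 of 8 plasma cell and B cell markers (median 4.40, 5 past the threshold). Their part in these values was not tested. Dnajb9, a BiP cofactor and target of XBP1, rose by 1.08 ± 0.29 (adjusted p = 0.0444), and over the alternative fits this change ran from 0.38 to 1.30. The list of ER chaperones had 1 of 17 past the threshold, against 15.6% of all genes. Ero1l, the ER oxidase, was higher at the high than at the low dose by 1.92 ± 0.39 (adjusted p = 0.0347).

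Upstream of ATF4, the high dose raised Eif2ak3 (PERK) by 0.62 ± 0.18 (adjusted p = 0.0491), and Eif2s1, the eIF2 subunit that the kinases phosphorylate, fell by 0.71 on the log2 scale (adjusted p = 0.0428). These were 2 of the 7 genes in the list of eIF2 kinases, their substrate and the phosphatase subunits, while 15.6% of all genes passed. Of 14 further ISR factors and outputs, Vldlr, a lipoprotein receptor, rose by 1.43 ± 0.39 against vehicle (adjusted p = 0.0449) and by 1.96 ± 0.43 against the low dose (adjusted p = 0.0419). Nupr1, a stress-response chromatin protein, fell by 1.61 (adjusted p = 0.0401), with 7.96 to 8.23 log2 CPM in vehicle and 5.03 to 7.09 at the high dose. At the high dose 25 of 25 hepatocyte markers and 8 of 8 plasma cell and B cell markers were higher, and 9 of 9 macrophage markers were lower (median −1.42, 8 past the threshold). The part of plasma cells and macrophages was not tested. The UPR sensors and site proteases had 0 of 5 past the threshold in edgeR in every comparison, with 0 to 2 at an unadjusted p under 0.05.

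Among genes of amino acid supply, the tRNA synthetase list had the sign of Asns at the high dose and in the anti-PD1 cohort. Of 12 cytosolic tRNA synthetases, which charge tRNAs with amino acids, 12 were below 0 at the high dose (median −0.34) and 3 fell past the threshold (of all genes tested, 51.4% were above 0 and 6.82% were called lower), among them Gars (−0.66 ± 0.18, adjusted p = 0.0456) and Iars (−0.64 ± 0.19, adjusted p = 0.0490). In the same comparison 9 of 9 macrophage markers were lower (median −1.42, 8 past the threshold) and the hepatocyte markers higher, and the part of these cells was not tested. In the anti-PD1 cohort 12 of 12 were above 0 in each of the 3 treated groups, with medians of 0.35, 0.49 and 0.43 and 0 of 12 past the threshold. Over all genes 52.9%, 45.4% and 46.0% were above 0 in these groups. The median of 8 amino acid transporters was −0.53 at the high dose and 0.11, 0.14 and 0.42 in the anti-PD1 cohort.

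The serine, glycine, proline and cysteine synthesis list had 10 genes, with a median of −0.07 at the high dose and 0.67, 0.59 and 0.28 in the anti-PD1 cohort. Its single call was Cth, the last enzyme of cysteine synthesis, at the high dose (5.05 ± 1.45, adjusted p = 0.0484), where 15.6% of all genes were called. Over the alternative fits the change of Cth ran from 0.87 to 5.69. Cth, also abundant in hepatocytes, ran from −0.15 to 2.71 log2 CPM in vehicle and from 2.68 to 8.03 at the high dose, beside the hepatocyte sums given above. Among 11 cytosolic and mitochondrial heat shock genes, 1 was called at the high dose, against 15.6% of all genes. It was Hspb1 (2.13 ± 0.61, adjusted p = 0.0483), and over the alternative fits its change ran from 0.70 to 2.57. Its libraries overlapped, at 1.50 to 2.32 log2 CPM in vehicle and 1.91 to 4.59 at the high dose. The list medians were −0.20 at the low dose in the dose cohort, 0.63 in the DC-101 cohort and 0.50 in the anti-PD1 cohort.

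**Figure D5:**
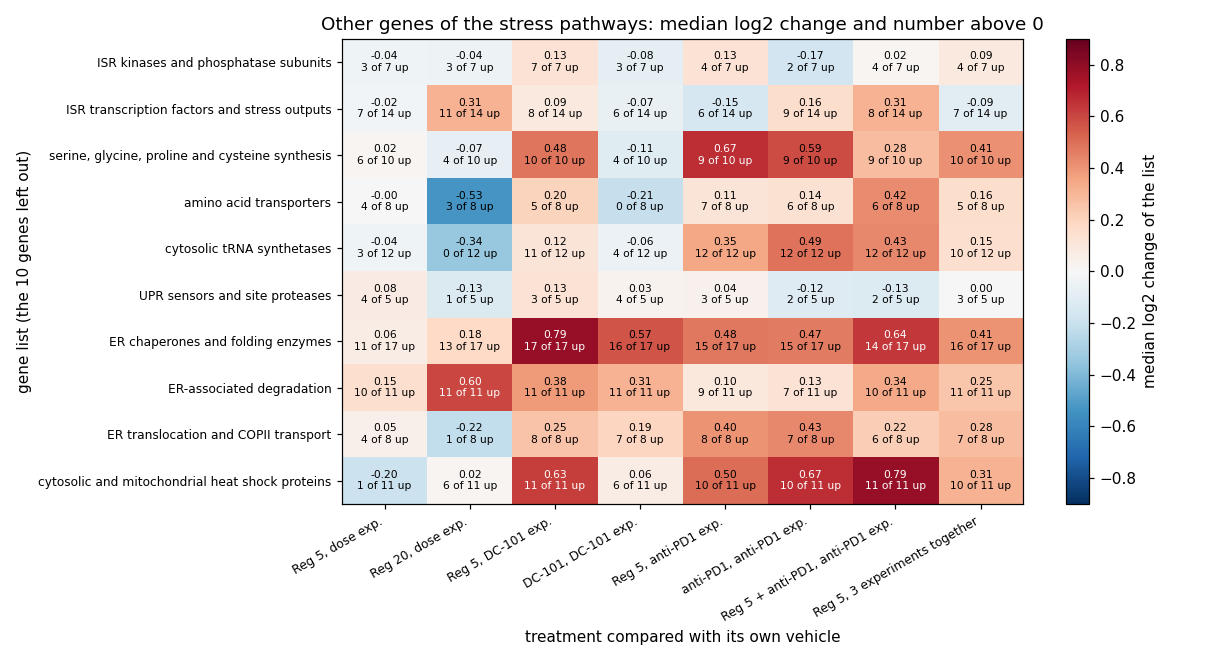
Median log2 change against vehicle of the 10 pathway lists (rows, the 10 members left out) in 7 comparisons and in the low dose fit over 3 cohorts (columns), as colour and printed value, with the number of tested genes above 0. At the low dose in the DC-101 cohort the ER chaperone list has the highest median (0.79), and the tRNA synthetase list is below 0 at the high dose (−0.34) and above 0 in the 3 treated groups of the anti-PD1 cohort.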

How the data were processed

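RNA of BNL-MEA tumours (32 libraries) was sequenced from a stranded mRNA kit. The labels speak of frozen material and the study's methods of fresh tumours. The authors trimmed adapters with cutadapt 2.4, aligned reads to GRCm38 with STAR 2.7.2a and deposited raw counts per Gencode gene, unfiltered and not normalized. The strand column taken is not given in the sources used here. Of the gene identifiers, 99.932% matched the annotation. Library totals ran from 16767130 to 27693689 counts, and the error of counting is part of the spread between libraries.

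Within each cohort all groups were fitted in edgeR 4.0.16 (R 4.3.3): filterByExpr (minimum count 10, minimum total 15), TMM scaling, a quasi-likelihood F-test with robust estimation, adjusted by Benjamini-Hochberg over all genes tested (16525, 16138 and 16615). For the low dose over 3 cohorts, cohort entered the model (15562 genes). Log2 CPM used a prior count of 2, and RPKM used summed exon lengths. The code was tested on simulated counts. Libraries of a group differed beyond sampling noise (chi-square per degree of freedom 14.0 to 918.5 over 36 pairs).

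Alternatives were RLE size factors, no filter, DESeq2 1.42.0, limma 3.58.1 voom, a replicate block, the hepatocyte score as a covariate, each library left out and, chosen after the data were seen, each cohort left out. The members, gene lists and tests were chosen with earlier results of these data known. All 10 members are named, with up to 2 rises and 2 falls of each pathway list past the threshold in each comparison, and the 5 genes most correlated with Ddit3 and with Hspa5.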

Additional observations from a re-analysis of the deposited data

Results flagged for a closer look

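In 20 checks of the 2 vehicle groups with 4 libraries, 2 members had a library that lay apart from the other 3 by Dixon's criterion, and chance gives about 1 in 20. Hsp90b1 was at 10.73 log2 CPM in vehicle replicate 2 of the dose cohort, with the other 3 libraries at 10.20 to 10.28. Atf3 was at 3.73 log2 CPM in vehicle replicate 4 of the DC-101 cohort, with the other 3 at 4.79 to 4.98.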

How the results depend on the processing

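Of 1550 values of members recomputed under the alternatives, 1510 stayed on the same side of the threshold, 22 lost it, 18 gained it and 0 called values changed sign, while 73 values that were past the threshold in neither fit did (the largest of them 0.63, Ddit3 under anti-PD1). Members past the threshold at the high dose, 1 as reported, came to 0 without a filter, in voom, with the replicate block and with the hepatocyte covariate, to 2 in DESeq2 and to 0 to 2 with 1 library left out. Over 3 cohorts, 1 as reported, they came to 0 without a filter, with the hepatocyte covariate, without the DC-101 cohort and without the anti-PD1 cohort, to 2 in DESeq2 and to 0 to 1 with 1 library left out. Between the doses, 0 as reported, they came to 2 in DESeq2 and 0 to 2 with 1 library left out. DESeq2 also called 4 members at the low dose in the DC-101 cohort, 1 in the anti-PD1 cohort, 2 under anti-PD1, 2 under the combination and 1 for the difference between cohorts, where edgeR called 0. The unfiltered fits adjusted over 31010 genes at the high dose and 34455 over 3 cohorts. The cause of these differences between fits was not tested.

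Over all genes, calls at the high dose were 2582 as reported, 416 without a filter, 5275 in DESeq2, 1332 in voom, 1 with the replicate block, 157 with the hepatocyte covariate and 15 to 7030 with 1 library left out. Over 3 cohorts they were 276, 153, 892, 304, 178 and 198 in the same order, 158 to 313 with 1 library left out, and 63, 17 and 407 without p112, p103 and p101. Between the doses they were 697, 309, 3059, 776, 1, 688 and 62 to 4488. DESeq2 called 85, 1097 and 425 genes at the low dose in the 3 cohorts, 373 under DC-101, 614 under anti-PD1, 150 under the combination and 100 for the difference, against 0, 4, 0, 0, 0, 0 and 0 in edgeR. The low dose of the DC-101 cohort, with 4 calls, had 12 without a filter and 0 with the block, with the covariate or with any 1 library left out. From 0 calls, no filter gave 10 at the low dose of the anti-PD1 cohort and 1 under the combination, the covariate gave 3 at the low dose of the dose cohort, 7 at that of the anti-PD1 cohort and 7 under the combination, and leaving out 1 library gave up to 2 for the difference.

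Replicate numbers were not taken as pairs in the main fits. Deviations from group means correlated above 0.1 in 2 of 9, 4 of 9 and 6 of 18 same-number pairs of p112, p103 and p101. The highest of these correlations were 0.60, 0.68 and 0.63. With so few libraries a group, these values cannot settle whether libraries of the same number share a batch. With the replicate block the high-dose change of Xbp1 was 0.76 (adjusted p = 0.199) and that call was lost, and no other call on a member changed. With 3 or 4 libraries a group, a change of a variable gene such as Atf3 or Chac1 must be large to pass, so a missed threshold does not show that levels were equal.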
